A study of Mus musculus with 36 samples.

Results

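Regions of open chromatin were examined on the unplaced contigs of the mouse assembly mm9 and in 4 windows suspected of holding repeat arrays. Members were all listed regions on contigs whose name contains random or Un, without those of the sex chromosomes, and all listed regions that overlap chr5:14850000-15250000, chr8:19850000-20050000, chr6:47580000-47720000 or chr2:98490000-98510000. The rule found 542 of 122759 listed regions, of which 206 lay on 7 contigs, 134 in the chromosome 5 window, 125 in the chromosome 8 window, 75 in the chromosome 6 window and 2 in the chromosome 2 window. By day, 55 of 46827 regions were members on day 4, 283 of 34952 on day 7 and 204 of 40980 on day 14. Another 35 regions on contigs of the sex chromosomes were left out. The windows were proposed with earlier results of these libraries known, the contrast of border zone with sham among them, so that contrast is described in the windows without a test. The contigs were chosen by their name and no measured value, although their regions had to be listed and this rule too was proposed with earlier results known.

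The assay was ATAC-seq, in which a transposase cuts accessible DNA, on cardiomyocyte nuclei of the left ventricle of FVB/N mice. The border zone is the surviving muscle next to the scar of a myocardial infarction, and sham animals had the operation without infarction. Each of the 3 time points, days 4, 7 and 14 after the operation, has a single library per condition, and p-values below therefore measure only the spread between these libraries. Per the labels, the day 4 mice carried Cdh5-Cre, active in endothelial cells, with a Sun1-sfGFP reporter of the nuclear envelope, and their nuclei were sorted by GFP and then pulled down by PCM1, which surrounds the nuclei of cardiomyocytes. The mice of days 7 and 14 were of Myh6-MerCreMer, nTnG and Sun1-sfGFP lines, in which tamoxifen at 20 mg/kg switches on a nuclear reporter in cardiomyocytes, and 50000 sorted nuclei per sample entered the assay. Sham and border zone mice of a day shared these alleles and agents. Day 4 thus differs from the later days in mouse line, isolation of nuclei and aligner as well as in time, and these cannot be told apart.

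Each list gives a region with its tags in the sham library and in the border zone library, the latter scaled by the authors. A region is listed as border zone-higher, sham-higher or non-differential. The lowest fold among border zone-higher regions was 1.7503, 1.7510 and 1.7503 on the 3 days, and the highest among sham-higher ones was 0.571 on each. Folds below are border zone over sham of the listed tags, and levels are tags per kb of listed region, with border zone levels in whole tags before scaling. Intervals are exact 95% Clopper-Pearson intervals and cover counting error only. The listed tags summed to between 2743572 and 13936013 whole tags per library. The cell type of the nuclei was not checked against marker genes, and the genes at these positions are not named, since no mm9 annotation was used here.

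Random and Un contigs hold sequence that was assembled but not given a place on a chromosome, and pieces joined within such a contig need not be neighbours in the genome. Much of this sequence belongs to segmental duplications, satellites and clusters of like copies. A repeat array is a run of copies of the same unit side by side. A short read from a sequence with several copies fits each of them equally well, so its assigned place need not be its origin, and tags at a copy in the assembly can include reads from copies that the assembly lacks. No base sequence was used here, so the number of copies was not measured, and the features described are those of the tags and of the regions' positions.

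Summed tags were higher in the border zone library at every location and day with listed regions, with the exception of the chromosome 6 window on day 4. On the contigs the fold was 1.39 (1.37 to 1.42) on day 7 and 1.37 (1.35 to 1.39) on day 14. In the chromosome 5 window it was 1.56 (1.39 to 1.749), 1.93 (1.88 to 1.98) and 2.30 (2.24 to 2.36) on days 4, 7 and 14. In the chromosome 8 window it was 1.13 (1.10 to 1.17), 1.94 (1.90 to 1.99) and 1.53 (1.49 to 1.58). These 2 windows did not differ beyond counting error on day 7, and their intervals lay apart on day 14. In the chromosome 6 window the fold was 0.932 (0.915 to 0.9505), 1.18 (1.16 to 1.20) and 1.33 (1.32 to 1.35). With 1 scaling factor per day that makes the listed tags of both libraries equal, the day 4 fold of the chromosome 6 window was 1.01, on the other side of 1. Over all listed regions the fold of summed tags was 0.931, 0.954 and 1.01 on the 3 days. The median of their single ratios was 0.938, 0.906 and 1.02.

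**Figure D1:**
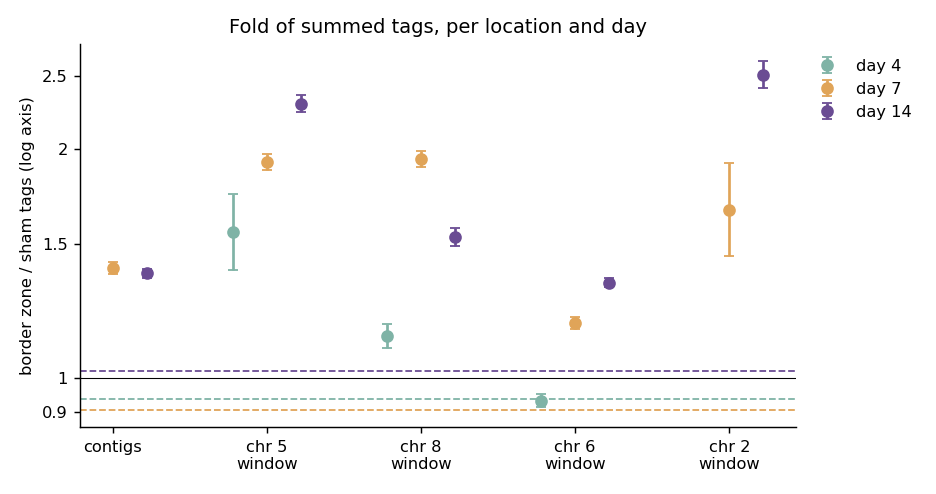
Border zone to sham fold of summed listed tags (log axis) for the contigs and the 4 windows, by day; error bars are 95% counting intervals and dashed lines the median ratio of all listed regions of the day. The contigs lie at 1.39 and 1.37, the chromosome 5 window climbs from 1.56 to 2.30 over the days, and the chromosome 6 window on day 4, at 0.932, is the one point below 1.

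On day 7, 63 of 127 contig regions were border zone-higher and 6 sham-higher, beside 17.5% and 22% of all listed regions. On day 14, 23 of 79 were border zone-higher and 1 sham-higher, beside 13.4% and 6.75% of all. With a fold of at least 2, 0 contig regions were sham-higher on day 14, beside 2.85% of all. Day 4 listed 0 regions on any random or Un contig. The day 4 reads were aligned with another program, and the part of that in the missing contigs was not tested. Without chr8_random, 31 contig regions were border zone-higher on day 7, and the summed folds were 1.19 and 1.28 on days 7 and 14.

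The 7 contigs differed among themselves. chr8_random held 53 regions on day 7, 32 of them border zone-higher, at a fold of 1.995 (1.93 to 2.06), and 13 regions on day 14, 4 of them border zone-higher, at 1.90 (1.84 to 1.97). chrUn_random, which gathers pieces assigned to no chromosome, held 29 regions on day 7 with 17 border zone-higher (fold 1.78, 1.70 to 1.86) and 20 on day 14 with 12 border zone-higher (fold 1.98, 1.90 to 2.06). chr1_random held 22 and 23 regions, at folds of 1.29 (1.22 to 1.36) and 1.41 (1.37 to 1.46). Another 3 contigs were close to 1 on day 14. chr13_random had 8 and 6 regions at 1.18 (1.10 to 1.254) and 0.952 (0.911 to 0.996), chr4_random 2 regions a day at 1.35 (1.24995 to 1.46) and 0.975 (0.930 to 1.02), and chr17_random 2 and 3 regions at 0.936 (0.808 to 1.08) and 0.957 (0.883 to 1.04). chr9_random had 11 and 12 regions at 0.974 (0.945 to 1.005) and 1.22 (1.19 to 1.26). Without 1 region, the day 7 fold of chr9_random was 1.35.

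That region, chr9_random:448251-449403, had 4518 sham tags and 2482 listed border zone tags on day 7, a fold of 0.549 (0.520 to 0.580). It had rank 2 of all 34952 regions of the day in tags per kb in both libraries. It is the 1 contig region whose end is off the 500 bp step of the lists, and on day 14 it was not listed. Without it the contig fold of day 7 was 1.58 in place of 1.39. The contig region with the most sham tags on day 14 was chr9_random:54751-57750, with 5955 sham and 6805 border zone tags (fold 1.14, 1.10 to 1.19). On day 7 the overlapping region chr9_random:54251-56750 had 2791 and 3951 tags and rank 5 by sham tags per kb.

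The planned test over 3 days could give no contig locus, since day 4 lists none, so the conditions were compared over days 7 and 14 in the 26554 loci listed on both, 45 of them on contigs, with day as a block. The larger value of a differential region was at least 50 tags on day 7 and 150 on day 14. A locus with few tags in 1 library could thus be listed through the other alone, which favours a call for that other library. edgeR called 16 contig loci border zone-higher and 1 sham-higher at an adjusted p of at most 0.05, beside 19.8% and 15.5% of all loci. DESeq2 with the same block called 11 and 0, beside 7.99% and 3.07% of all loci, and 1 of 45 contig loci was sham-higher at an unadjusted DESeq2 p under 0.05, beside 2922 of all 26554. With day left out of the model, edgeR called 0 loci of any kind, contig or other, and 5 of 45 contig loci had an unadjusted p under 0.05, beside 4830 of all 26554. The median log2 fold change of the contig loci was 0.26 and that of all loci 0.02, after TMM normalization. Calls came from chrUn_random with 7 of its 10 loci, chr8_random with 4 of 7, chr1_random with 2 of 11, chr9_random with 2 border zone-higher and 1 sham-higher of 7, and chr13_random with 1 of 6, while chr4_random and chr17_random, with 2 loci each, had none. The chr13_random locus, chr13_random:325251-327250, was called (log2 fold change 0.48, edgeR adjusted p = 0.0386) with a fold of 1.89 on day 7 and 0.982 on day 14. Among the chrUn_random calls, chrUn_random:2440751-2441750 had 31 sham and 91.6 listed border zone tags on day 7 and 85 and 171 on day 14. That locus met the minima of the differential lists only through the border zone library.

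The smallest p belonged to chrUn_random:3631751-3632750, which had 285 sham tags and 750 listed border zone tags on day 7 and 185 and 627 on day 14. Its log2 fold change was 1.67 ± 0.19 (SE), with an edgeR adjusted p of 6.02e-15. Its sham tags fell between the days, to 0.649 of the day 7 count, whereas the median locus had 3.52 times as many tags on day 14. A neighbour on the same contig, chrUn_random:3658251-3659250, had 41 and 105 tags on day 7 and 108 and 365 on day 14, with a log2 fold change of 1.68 ± 0.25 (edgeR adjusted p = 1.58e-09). Its sham tags lay below 50 and 150, so it met the minima of the differential lists only through the border zone library. Its p is therefore not independent of its listing. chr9_random:241751-243750 had 179 and 423 tags on day 7 and 358 and 1187 on day 14 (log2 fold change 1.59 ± 0.20, edgeR adjusted p = 1.41e-13). Both of these loci had the higher fold on day 14.

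Longer loci on chr8_random were also among those with the smallest p. Both were formed by joining overlaps of 1 bp or more, and no contig region of day 14 exceeded 4.5 kb, so their days cover different stretches. Joined by midpoints, the first gave no locus. The second shrank to chr8_random:819251-823250, with a log2 fold change of 1.15 (edgeR adjusted p = 4.01e-07). chr8_random:674251-687750 had 1858 sham tags and 4023 listed border zone tags on day 7 and 2412 and 6586 on day 14 (log2 fold change 1.38 ± 0.18, edgeR adjusted p = 4.92e-12). chr8_random:815251-825250 had 819 and 1652 tags on day 7 and 932 and 2021 on day 14 (log2 fold change 1.17 ± 0.18, edgeR adjusted p = 7.50e-09). The 1 sham-higher locus, chr9_random:28751-29750, had 72 sham tags and 33.7 listed border zone tags on day 7 and 227 and 115 on day 14 (log2 fold change -0.94 ± 0.28, edgeR adjusted p = 0.00473). DESeq2 did not call this locus, at an adjusted p of 0.134. It was also listed as sham-higher on both days, and it met the minima of those lists only through the sham library.

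Of the 45 contig loci, 21 had folds above 1 on both days, 8 below 1 on both and 16 on different sides, beside 9189, 11635 and 5718 of the 26554 loci. The lowest contig ratio was 0.286, at chr1_random:10751-11750 on day 7 with 53 sham and 15.2 border zone tags, and on day 14 the same region had a ratio of 0.914. The highest contig ratio was 4.96, at chr8_random:86251-87250 on day 7 with 12 and 59.5 tags, and on day 14 it was 4.74, at chrUn_random:3650751-3651750 with 44 and 208 tags. Each of these 3 extreme ratios came from a region with few sham tags, and the regions were chosen after their values were seen.

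**Figure D2:**
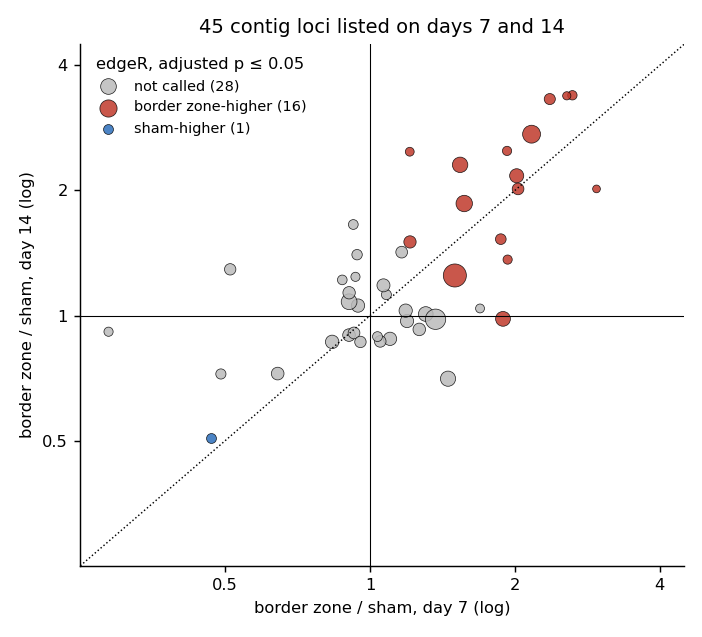
Border zone to sham fold of the 45 contig loci on day 7 (x axis) and day 14 (y axis), both log axes; circle size grows with the square root of the sham tags of day 14, and colours give the edgeR calls. Of the 16 loci called border zone-higher, all but chr13_random:325251-327250, with a fold of 0.982 on day 14, lie above 1 on both days, the 1 called sham-higher lies at the lower left, and the dotted line marks equal folds.

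In the chromosome 6 window, tags fell into a regular pattern of dense regions with thinner stretches between them. On day 14, 15 of its 39 regions had at least 1500 sham tags, a limit set after the values were seen. Within runs, the midpoints of neighbouring dense regions were 3.5 to 6.25 kb apart, with a median of 4.25 kb, and 11 of 13 such distances were within 0.5 kb of that median. The dense regions fell in 2 blocks around an unlisted stretch of 49.5 kb at chr6:47637251-47686750, which was unlisted on all 3 days. The first dense region, chr6:47604751-47605750, had 2047 sham and 2398 border zone tags. The one with the most tags, chr6:47693251-47694750, had 2784 and 3277 (fold 1.18, 1.11 to 1.24), and the densest per kb, chr6:47626751-47627250, had 1728 and 1804. The distances were 4 to 4.5 kb in the first block and 3.5 to 6.25 kb in the second. The dense regions had between 1535 and 2784 sham tags.

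Border zone-higher in the chromosome 6 window were 3 of 8 regions on day 4, beside 12.2% of all regions, 14 of 28 on day 7, beside 17.5%, and 21 of 39 on day 14, beside 13.4%. Sham-higher were 0 on each day, whereas 7.37%, 22% and 6.75% of all regions were. On day 14, dense and thin regions of the window had different ratios of border zone to sham. The groups were divided by sham tags, the denominator of the ratio, so part of that difference is built in. Regions are also cut where the list changes, so the split by list is not independent of the ratio. Over the 15 dense regions, all non-differential, the sham level was 1826 tags per kb, and their fold was 1.14 (1.12 to 1.16), with single ratios from 0.978 to 1.21. Over the 24 others, 21 of them border zone-higher, the sham level was 189 tags per kb and the fold 1.98 (1.93 to 2.03), with ratios from 1.02 to 2.34. The ratio of 1.02 belonged to chr6:47600251-47600750, before the first dense region, non-differential with 447 and 457 tags. The limit was on tags per region and not per kb, so this short region fell among the others without being thin. The lowest ratio, 0.978, belonged to the dense region chr6:47622251-47622750 with 1672 and 1634 tags, which ranked 11th of 40980 regions in sham tags per kb. The highest belonged to the thin region chr6:47602751-47604750, with 301 and 703 tags. On day 7, with its 28 regions in 3 groups of about equal number by whole tags per kb, the median ratio was 1.82 over the 9 least dense regions, 1.69 over the 10 in the middle and 1.10 over the 9 densest, whose ratios ran from 0.991 to 1.34. On that day the highest ratio, 2.29, was at chr6:47616251-47617750 with 144 and 330 tags, and the lowest, 0.991, at chr6:47634751-47637250 with 1856 and 1839. The region with the most sham tags, chr6:47617751-47624750, had 3578 and 3848 tags over 7 kb.

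On day 4 the same stretches of chromosome 6 were listed as a few long non-differential regions. The longest, chr6:47607751-47637250, spanned 29.5 kb with 9703 sham and 9141 border zone tags (fold 0.942, 0.915 to 0.969). The list also held 3 border zone-higher regions of 1 kb each, 2 of them between the long ones and chr6:47718751-47719750 at the end, with 31.3 sham tags per kb and a fold of 1.82 (1.40 to 2.38), the highest at chr6:47704751-47705750 with 35 and 65.0 tags. The lowest ratio of day 4 was 0.871, at chr6:47717251-47718750 with 789 and 687 tags. The 2 blocks were listed on every day. The first, chr6:47599251-47637250, went from a fold of 0.941 to 1.14 and 1.33 over the 3 days. The second, chr6:47686751-47716750, went from 0.924 to 1.26 and 1.34, and the short stretch after it, chr6:47716751-47719750, from 0.897 to 1.13 and 1.26. These steps include the scaling of each day. Before scaling, the second block had 8480 border zone and 9095 sham tags on day 7 and 18609 and 18904 on day 14. Listed regions covered 49.6%, 50.4% and 50.0% of the window on the 3 days, so the listed length hardly differed.

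**Figure D3:**
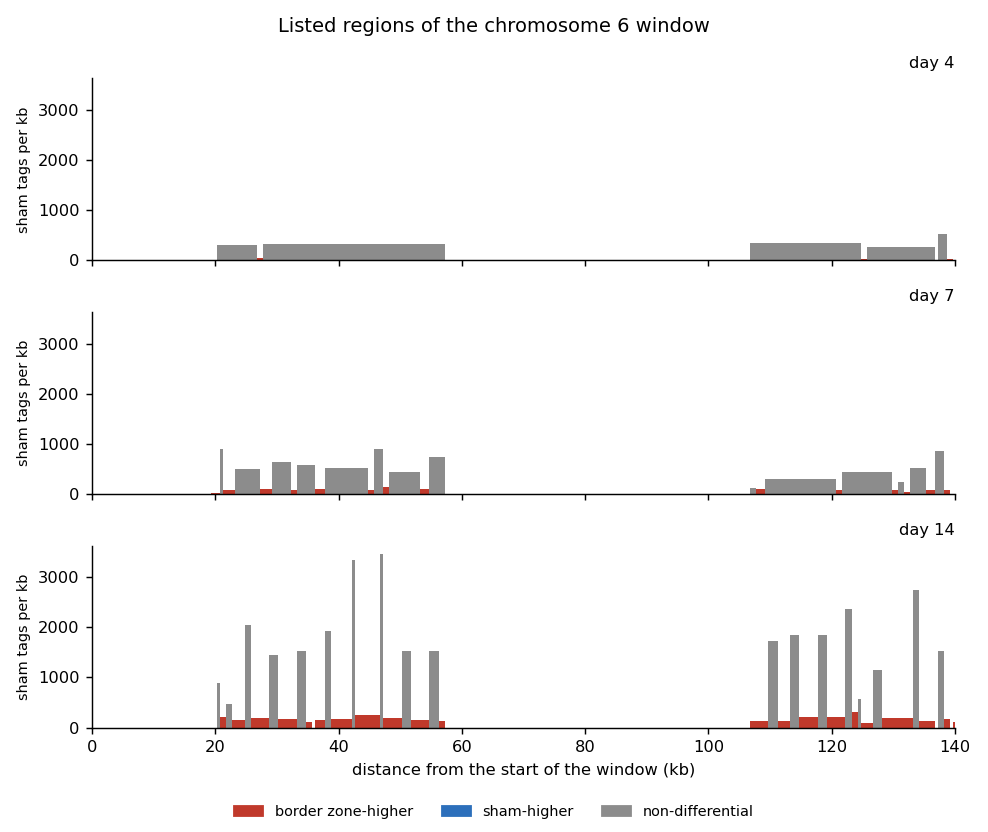
Sham tags per kb of each listed region of the chromosome 6 window against its distance from the window start in kb, for days 4, 7 and 14; bars span the region and colours give its list. On day 14 the 15 dense regions, all grey, stand about 4.25 kb apart in 2 blocks, at 1826 sham tags per kb together, and the other regions, mostly red, lie between them at 189; no region of the window was sham-higher.

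In the chromosome 8 window, the border zone excess was broad on day 7 and patchy on days 4 and 14. Border zone-higher were 9 of 36 regions on day 4, beside 12.2% of all regions, 30 of 58 on day 7, beside 17.5%, and 11 of 31 on day 14, beside 13.4%. None was sham-higher on any day, where all regions had 7.37%, 22% and 6.75%. With 1 scaling factor per day, 5 regions were border zone-higher on day 4, beside 12.5% of all. With a fold of at least 2 they were 2 on day 4, beside 7.63%, and 3 on day 14, beside 8.28%. On day 7 the lowest of the 58 ratios was 1.20, at chr8:19881251-19881750, with 72 sham and 86.2 border zone tags, and the highest was 2.51, at chr8:19940251-19945250, with 216 and 541. On day 4 the ratios ran from 0.679 at chr8:19897751-19898750 (53 and 36 tags) to 2.20 at chr8:19861751-19862750 (37 and 81.5 tags). On day 14 they ran from 0.824 at chr8:19883751-19885250 (459 and 378 tags) to 2.35 at chr8:19931251-19932250 (66 and 155 tags). Listed regions covered 38.5%, 65.8% and 24.8% of the window on the 3 days, so sums over the window compare different stretches.

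Over 13 loci of the chromosome 8 window listed on all 3 days, the median fold was 1.12, 1.89 and 1.38, and 13, 13 and 10 of them were above 1. The locus chr8:19923751-19933250 had 1066 sham tags and 1159 listed border zone tags on day 4 (fold 1.09), 1343 and 3037 on day 7 (fold 2.26) and 1704 and 3878 on day 14 (fold 2.28). It was the region with the most sham tags on day 7. The locus chr8:19882251-19886250 had folds of 1.01, 1.71 and 0.824. These loci had similar folds on day 4 and lay on different sides of 1 on day 14. The regions with the most sham tags on days 4 and 14 both start at chr8:19974251. On day 4 it spanned 15 kb with 1724 and 1831 tags (fold 1.06, 0.994 to 1.13), and on day 14 it spanned 6.5 kb with 1633 and 2123 (fold 1.30, 1.21 to 1.39).

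Listed regions with median ratios above 1 also lay to the left of the chromosome 8 window. The nearest was 46.75, 46.75 and 47.25 kb outside the window on days 4, 7 and 14. The 200 kb before the window held 15, 35 and 10 listed regions on the 3 days, with median ratios of 1.34, 1.98 and 1.67. Of the 35 on day 7, 20 were border zone-higher. The nearest region outside on day 7, chr8:19802251-19803250, had 107 sham and 163 border zone tags, and the first inside, chr8:19853251-19854250, had 44 and 72.7. On the right the next listed region lay 3052 kb away on every day. On day 7 the nearest regions outside the chromosome 5 window lay 1220 kb to the left and 191 kb to the right, the latter sham-higher with 52 and 28.3 tags, whereas the last inside was border zone-higher with 123 and 255. For the chromosome 6 window, the nearest region to the right lay 6.25 kb away on day 7 and was border zone-higher with 68 and 168 tags, and the nearest to the left lay 35.25 kb away and was non-differential with 265 and 400. On day 14 the last region counted in that window, chr6:47719751-47721250, crossed its end with 156 and 325 tags, and the next, 7.75 kb outside, had 883 and 846.

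In the chromosome 5 window, the fold of summed tags was larger on each later day. Over the 8 loci listed on all 3 days the median fold was 1.96, 2.002 and 2.23, and not each of them followed that order: chr5:14994251-14997250 had folds of 2.23, 1.67 and 2.23. Border zone-higher were 7 of 11 regions on day 4, 40 of 69 on day 7 and 47 of 54 on day 14, beside 12.2%, 17.5% and 13.4% of all regions. None was sham-higher, beside 7.37%, 22% and 6.75% of all. With a fold of at least 2, 26 of the 69 on day 7 were border zone-higher, beside 12.3% of all regions. Listed regions covered 3.75%, 37.5% and 23.6% of the window, so the days again compare different stretches. Ratios on day 7 reached 2.60 at chr5:15201751-15203250, with 56 sham and 145 border zone tags, and on day 14 they reached 3.78 at chr5:15210751-15211750, with 61 and 230. On day 4 the highest was 3.02 at chr5:15217251-15218250, with 12 and 36.2 tags (interval 1.53 to 6.38). The regions with the most sham tags were chr5:14944751-14956750 on day 7, 12 kb long with 739 and 1572 tags (fold 2.13, 1.94 to 2.33), and chr5:15194751-15200250 on day 14 with 675 and 1501 (fold 2.22, 2.02 to 2.45).

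The first region of the chromosome 5 window stood apart from the rest. chr5:14884751-14885750 had 127 sham tags and 91 listed border zone tags on day 4 (fold 0.717, 0.541 to 0.945), 87 and 79.5 on day 7 (0.913, 0.645 to 1.29) and 234 and 259 on day 14 (1.11, 0.909 to 1.35). It had the lowest ratio of the window on every day and the most sham tags on day 4. Without it the day 4 fold of the window was 1.85 in place of 1.56. Of 8 loci listed on all 3 days it was the 1 with a fold below 1 on days 4 and 7. The other 7 had folds of 1.39 to 2.23 on day 4, 1.67 to 2.25 on day 7 and 2.15 to 2.48 on day 14. An example is chr5:15004251-15009250, with 51 and 103 tags (day 4), 545 and 1102 (day 7) and 546 and 1186 (day 14), at folds of 2.03, 2.02 and 2.17.

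**Figure D4:**
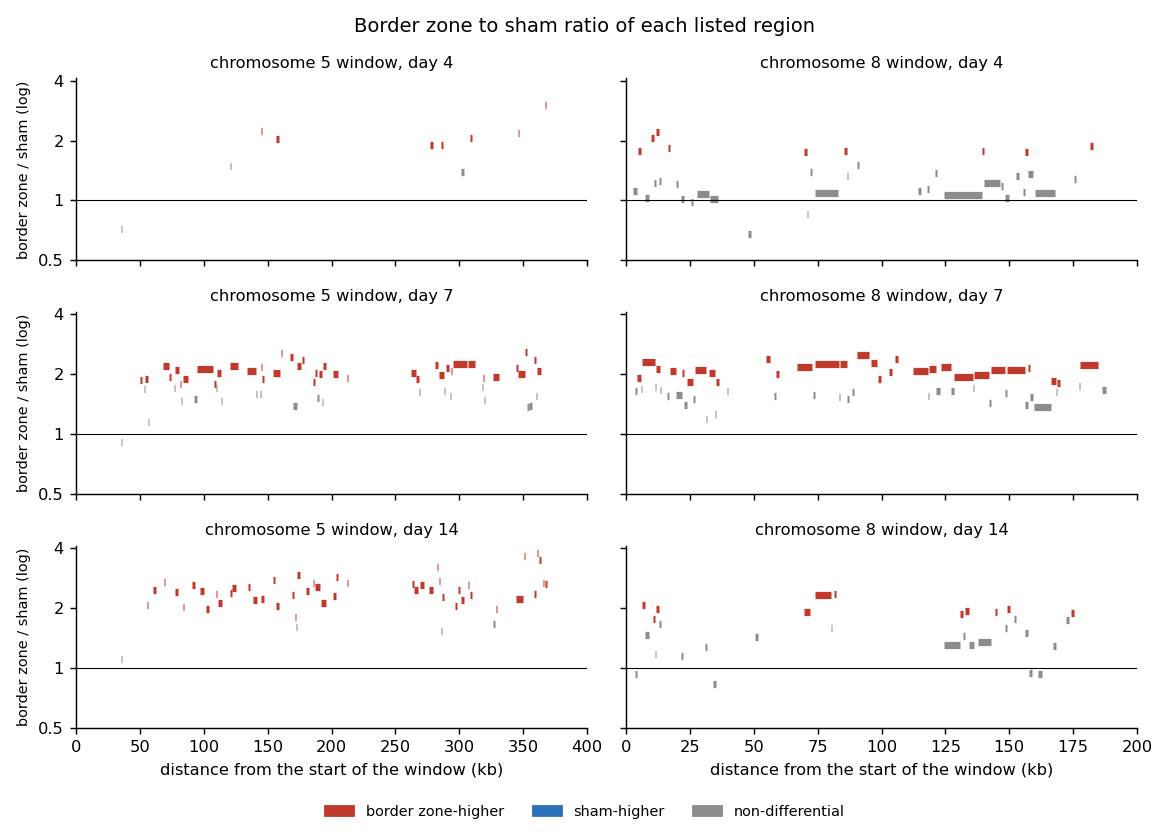
Border zone to sham ratio (log axis) of each listed region of the chromosome 5 window (left) and the chromosome 8 window (right) against its distance from the window start in kb, for days 4, 7 and 14; bars span the region and colours give its list. Apart from the first region on day 7, the chromosome 5 regions of days 7 and 14 lie above 1. Those of chromosome 8 lie between 1.20 and 2.51 on day 7 and spread from 0.824 to 2.35 on day 14.

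The chromosome 2 window held a single listed place, so the lists show no run of regions there. A count of listed places does not measure copies, since tags at a place can include reads from copies that the assembly lacks. In the day 7 lists chr2:98503251-98504250 was non-differential with 360 sham and 599 border zone tags (fold 1.66, 1.45 to 1.92). On day 14, chr2:98503251-98504750 was border zone-higher with 3749 and 9412 tags (fold 2.51, 2.41 to 2.61). On day 4 it was not listed. In border zone tags per kb it ranked 75th of 34952 regions on day 7 and had rank 2 of 40980 on day 14, and in sham tags per kb it ranked 233rd and 25th. Its tags rose 10.4-fold in the sham library and 15.4-fold in the border zone library from day 7 to day 14, where the 5th and 95th percentiles over the 26554 loci were 1.748 and 6.53 in sham and 1.72 and 8.50 in the border zone. The day 14 region is longer by 0.5 kb, and per kb the increases were 6.94-fold and 10.3-fold. The nearest listed region lay 1183 kb to the left of the window on every day, and 2414 kb or more to the right.

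The levels of the chromosome 5, 6 and 8 windows differed less between days 7 and 14 than the level over all listed regions did, in sham and in border zone libraries alike. Over all listed regions the sham level was 91.8 tags per kb on day 7 and 285 on day 14, a ratio of 3.103. The ratio was 1.52 in the chromosome 5 window (69.1 and 105 tags per kb), 1.63 in the chromosome 6 window (374 and 610) and 2.36 in the chromosome 8 window (80.3 and 189), and it was 2.73 on the contigs (129 and 353). Border zone levels had ratios of 1.79, 1.83, 1.95 and 2.64 in the same order, beside 3.24 over all listed regions. The listed length changed as well, from 150 to 94.5 kb in the chromosome 5 window and from 131.5 to 49.5 kb in the chromosome 8 window.

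Regions with the same start and end on both days leave that length out of the comparison. Over all 18170 of them the median sham ratio of day 14 to day 7 was 3.56, with 2.19 and 5.51 as the 5th and 95th percentiles. In the chromosome 5 window the 4 such regions had sham ratios from 0.774 to 2.69, in the chromosome 8 window 4 had 0.606 to 3.41, and in the chromosome 6 window 2 had 1.65 and 2.51. chr8:20006251-20007250 went from 180 to 109 sham tags and from 188 to 119 whole border zone tags. chr5:14959251-14960250 went from 159 to 123 sham tags and from 201 to 210 in the border zone. The chromosome 5 region with the ratio of 2.69 was the first one, chr5:14884751-14885750, which also stood apart in its border zone to sham ratio. On the contigs, 26 such regions had a median of 3.04, from 0.649 at chrUn_random:3631751-3632750 to 3.85. The regions named here were chosen after their values were seen. These ratios use no contrast of border zone with sham, and with 1 library a day they were not tested.

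Many member regions lay side by side. A region abutted another listed region of the day in 100%, 100% and 97.4% of the chromosome 6 regions on days 4, 7 and 14, in 38.9%, 81.0% and 48.4% of the chromosome 8 regions, in 18.2%, 76.8% and 20.4% of the chromosome 5 regions, and in 41.7% and 15.2% of the contig regions on days 7 and 14. Over all listed regions the share was 12.9%, 23.1% and 13.2%. Regions of at least 5 kb made up 14.5%, 9.54% and 2.45% of the members and 0.391%, 0.363% and 0.210% of all listed regions. The lists cut a block wherever it changes from differential to non-differential, and these shares move with that cut.

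Tags per kb were high in the chromosome 6 and chromosome 2 windows and in single contig regions. By sham tags per kb, the median chromosome 5 region lay at the 9.13th, 47.5th and 7.84th percentile of the day's regions, and the median chromosome 8 region at the 31.9th, 59.2nd and 22.3rd. The median chromosome 6 region lay at the 98.0th, 81.9th and 58.7th percentile, the last including its thin regions. The median contig region lay at the 41.0th and 48.7th percentile. By border zone tags per kb the same medians lay higher, at the 23.6th, 87.3rd and 54.2nd percentile on chromosome 5, the 44.1st, 88.3rd and 35.4th on chromosome 8, the 98.6th, 97.0th and 91.9th on chromosome 6 and the 78.3rd and 69.2nd on the contigs.

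On day 14 the border zone to sham ratio was lower in denser regions of the chromosome 5, 6 and 8 windows. With the regions in 3 groups of about equal number by whole tags per kb, median ratios on day 14 were 2.11, 1.93 and 1.16 from the least dense to the densest in the chromosome 6 window, 2.66, 2.37 and 2.21 in the chromosome 5 window and 1.90, 1.46 and 1.33 in the chromosome 8 window. The contigs had 1.30, 1.37 and 1.02, and the chromosome 5 window on day 4 had 1.89, 2.07 and 1.5, so neither fell in order. On day 7 the contigs did fall in order, at 2.03, 1.88 and 1.29, beside 1.05, 0.887 and 0.884 over all listed regions of that day. The windows fell in order on day 7 too. Their medians were 2.02, 1.94 and 1.59 on chromosome 5, 2.02, 1.76 and 1.64 on chromosome 8, and 1.82, 1.69 and 1.10 on chromosome 6. On day 4 the chromosome 8 window had 1.63, 1.23 and 1.09, beside 1.26, 0.929 and 0.876 over all listed regions. Over all listed regions of day 14 the medians were 1.247, 0.997 and 0.942. Spearman's rho between ratio and tags per kb on day 14 was -0.83 over 39 chromosome 6 regions, -0.58 over 54 chromosome 5 regions, -0.48 over 31 chromosome 8 regions and -0.29 over 79 contig regions, beside -0.25 over all regions. The regions of a day share the same pair of libraries, and the tags enter both measures, so rho is given as a description.

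**Figure D5:**
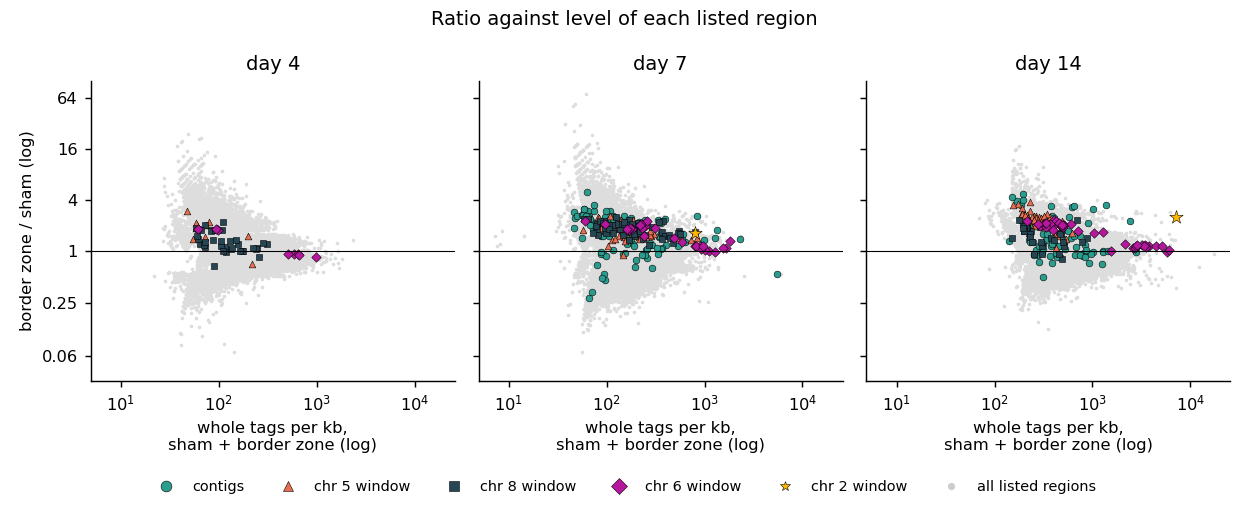
Border zone to sham ratio against whole tags per kb of both libraries (both log axes) for days 4, 7 and 14; grey points are all listed regions and coloured symbols the contigs and the 4 windows. Chromosome 6 regions run from ratios near 2 at low level to near 1 at the highest levels, and the chromosome 2 region of day 14 is far to the right at a ratio of 2.51.

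The scatter of ratios within a location was measured by a dispersion index. The index, the spread of the regions' tags around a common ratio divided by that of counting noise, was 3.72 in the chromosome 5 window on day 14, 14.0 in the chromosome 8 window, 38.0 in the chromosome 6 window and 50.7 on the contigs. It was 19.3 over all listed regions of that day. The index grows with the number of tags per region, and the chromosome 5 regions had few. Regions of a location may also share reads from the same copies, so they were not treated as replicates.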

How the data were processed

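The 6 ATAC-seq libraries were used, 1 for sham and 1 for border zone on each of days 4, 7 and 14, and 30 RNA-seq samples were left out. The submitters' processing notes name mm9, bedtools, Bowtie2 for day 4 and BWA for the later days. Their versions, the region caller and the treatment of duplicates or of reads with several matches are not stated there. Per the file headers, the 9 deposited lists give sham tags, which are counts, and border zone tags, a signal scaled by the authors, except that the day 4 non-differential values are unscaled counts. Of 85106 scaled values, 97.6% were a whole number times 1 of a few factors of the day, within 0.001%, and whole tags were recovered by division. Differential regions had a larger value of at least 35, 50 and 150 tags on days 4, 7 and 14, and a place that is not listed has no measured value. Library depth is unknown, and tags are not independent molecules.

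Members and lists were chosen with earlier results of these data known. The text names, in each window and day, the regions with the most sham tags and with the highest and lowest ratio, examples of loci listed on all days, each contig with 3 or more regions, the contig region with the most sham tags of each day, and at most 5 tested contig loci per direction with the smallest p. An overlap of 1 bp or more joined regions of 2 days into a locus. Whole tags of the loci of days 7 and 14 were tested with edgeR 4.0.16 (TMM, quasi-likelihood, day as a block, Benjamini-Hochberg over all loci) and with DESeq2 1.42.0. The SE of a log2 fold change is its size divided by the square root of F. This model has 1 residual degree of freedom, and its spread is in effect pooled over all loci. The sham and border zone library of a day are paired by the day in their labels. The script was tested on simulated data. Coordinates are mm9, counted from 1, and 0 columns of unmapped samples were used. Other scalings, folds, joins and members were tried.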

Additional observations from a re-analysis of the deposited data

Results flagged for a closer look

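In the chromosome 6 window the fold of summed listed tags lay below 1 on day 4, at 0.932, and above 1 on days 7 and 14, at 1.18 and 1.33. The sides depend on the scaling of border zone tags, which differs by day. With 1 scaling factor per day the folds were 1.01, 1.23 and 1.32. Before scaling, border zone and sham tags were 20186 and 21664, 23070 and 26355, and 41810 and 42702. Each border zone count was the lower one, without regard to the totals of the libraries. Over all listed regions the border zone counts were lower too, at 5469934 and 5907384, 2743572 and 3858892, and 10331589 and 13936013. With 1 pair of libraries per day the difference between days was not tested, and day 4 also differs in mouse line, isolation and aligner.

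On chr13_random the fold was 1.18 on day 7 and 0.952 on day 14, again on different sides of 1 beyond counting error. These folds too use the scaled tags, and that difference was not tested either.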

How the results depend on the processing

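With 1 scaling factor per day that makes listed tags equal, the day 4 fold of the chromosome 6 window turned to 1.01; folds were 1.46 and 1.35 on the contigs (days 7 and 14), 2.02 in the chromosome 5 window and 1.23 in the chromosome 6 window (day 7), and 1.22, 2.03 and 1.61 in the chromosome 8 window. The count of border zone-higher regions there on day 4 was 5 in place of 9. The median factor of the day gave 1.64 in the chromosome 8 window on day 14. With a fold of at least 2, border zone-higher counts were 26 on chromosome 5 (day 7), 2 and 3 on chromosome 8 (days 4 and 14) and 0 and 5 on chromosome 6 (days 4 and 7), and the sham-higher count of the contigs on day 14 was 0.

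Without the region with the most tags, folds were 1.58 and 1.41 on the contigs, 1.85 on chromosome 5 (day 4) and 1.38 on chromosome 8 (day 14). Levels without it, in sham and border zone tags per kb, were 107 and 126 (day 7) and 307 and 317 (day 14) on the contigs, 68.1 and 78.7, 75.6 and 107, and 182 and 190 on chromosome 8 (days 4, 7 and 14), and 299 and 276, 387 and 335, and 583 and 575 on chromosome 6. On chromosome 5 the sham level of day 4 was 25.6. With regions fully inside the window, the levels of chromosome 6 on day 14 were 621 and 607.

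Leaving out contigs was chosen after seeing the data. Without chr8_random, 31 contig regions were border zone-higher on day 7, and folds were 1.19 and 1.28. Without chr9_random they were 1.65 and 1.43, and 0 regions were sham-higher on day 14. Without chrUn_random, edgeR called 9 contig loci border zone-higher. With no replicate block, it called 0 border zone-higher and 0 sham-higher, and with DESeq2 0 were sham-higher. Joining by midpoints gave 13 and 1 calls, and a mean of at least 50 tags removed no locus. Over 3 days, and with day 7 or day 14 left out of them, there was no contig locus to test. The cause of these shifts was not tested. Low tag numbers limit the chromosome 5 regions of day 4, and copy number was not measured.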
